A study of Papio hamadryas with 72 samples.

Results

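Gene expression of omental adipose tissue was set against that of liver in 6 control baboons, Papio hamadryas, on chow. The 12 arrays are those that the labels give to the control maternal group (CON) and the chow diet, 6 of adipose and 6 of liver, matched by the number that names each animal, and they make up 12 of the 72 arrays of the series. The animals were juveniles of about 4.5 years, 3 females (replicates 1 to 3) and 3 males (replicates 4 to 6), born to mothers fed freely. The remaining arrays hold offspring of calorie-restricted mothers (MUN), skeletal muscle, and the same animals after 7 weeks on a high-fat, high-carbohydrate diet with a fructose drink (HFCS). Both tissues were biopsied after an overnight fast under anesthesia, the liver by needle from the right lobe, and total RNA was hybridised to a human Illumina BeadChip, so a gene whose baboon sequence differs from its human probe can appear dim. The arrays hold whole tissue, in which more cells of a type and more RNA per cell cannot be told apart.

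Liver parenchyma consists of hepatocytes, which make most plasma proteins, clear drugs and ammonia, produce bile acids and release glucose during a fast. White adipose tissue stores triglyceride in fat cells that hold a single large droplet, and it releases fatty acids by lipolysis. Around the fat cells lie fibroblasts, preadipocytes, vessels, immune cells and, in the omentum, a mesothelial covering. Values below are quantile normalized signals on the log2 scale, a difference is adipose minus liver within the animal, and a positive difference is higher in adipose. A gene detected on 0 arrays of the lower tissue is given as at least N-fold. Such a gene was kept only because every array of the higher tissue detected it, so its direction was fixed on entry. A gene was called where the adjusted p of limma with the animal as a block was under 0.05 and the change at least 1.2-fold, which is the threshold of the study.

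The labelled tissues were checked against 4 defining genes. PLIN1, the perilipin that coats the fat cell's droplet, gave 8.51 to 8.94 (median 8.75) over the 6 adipose arrays and 7.08 to 7.44 (median 7.29) over the 6 liver arrays. No liver array reached the lowest adipose array, and the difference was 1.48 (standard error 0.10, adjusted p = 2.19e-07). ALB, serum albumin, lay at 6.85 to 7.35 (median 7.15) in adipose and 14.16 to 14.62 (median 14.37) in liver, a difference of -7.25 (standard error 0.11, adjusted p = 9.51e-13). APOA1, the main protein of HDL, lay at 6.79 to 7.38 (median 7.28) in adipose and 14.13 to 14.49 (median 14.39) in liver, a difference of -7.17 (standard error 0.10, adjusted p = 8.72e-13). Both liver genes lay close to the lowest detected signal in adipose, where a detection score above 0.95 was reached on 4 and 4 of 6 arrays.

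LEP, the leptin gene, did not set the tissues apart. It lay at 8.09 to 9.07 (median 9.00) in adipose and 8.54 to 8.75 (median 8.66) in liver, was detected on all 6 arrays of both, and the groups overlapped, with a difference of 0.16 (standard error 0.12, adjusted p = 0.262). Leptin is a hormone of fat cells, so this probe goes against its use as a marker here. In the 6 skeletal muscle arrays of the same animals, with the 3 tissues normalized together, this probe had a mean of 8.36 beside 8.64 in adipose and 8.49 in liver. The muscle values ranged over 7.23 to 8.93. ALB reached 14.22 on these muscle arrays, so they are a limited comparison, and the cause was not tested. Without replicate 2, the animal with the lowest adipose LEP value, the LEP difference between adipose and liver was 0.28 with an adjusted p of 0.0311. The probe of ADIPOQ, adiponectin, was detected on 5 adipose arrays and 0 liver arrays and did not pass the filter. Of the 13 measured markers of fat cells (19 listed), 9 were higher in adipose, led by FABP4, CIDEA, PPARG and CIDEC, and 1, RBP4, was higher in liver. Among the 13, 3 genes, CIDEA and CIDEC included, passed the filter only through 1 tissue, so their direction was fixed on entry. Of all 8224 genes, 35.7% were higher in adipose and 26.6% in liver. All 10 measured hepatocyte markers were higher in liver, with a median difference of -6.66, or -6.42 with the 6 genes not detected in the lower tissue at their bound. Those 6 passed the filter only through the liver arrays.

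**Figure D1:**
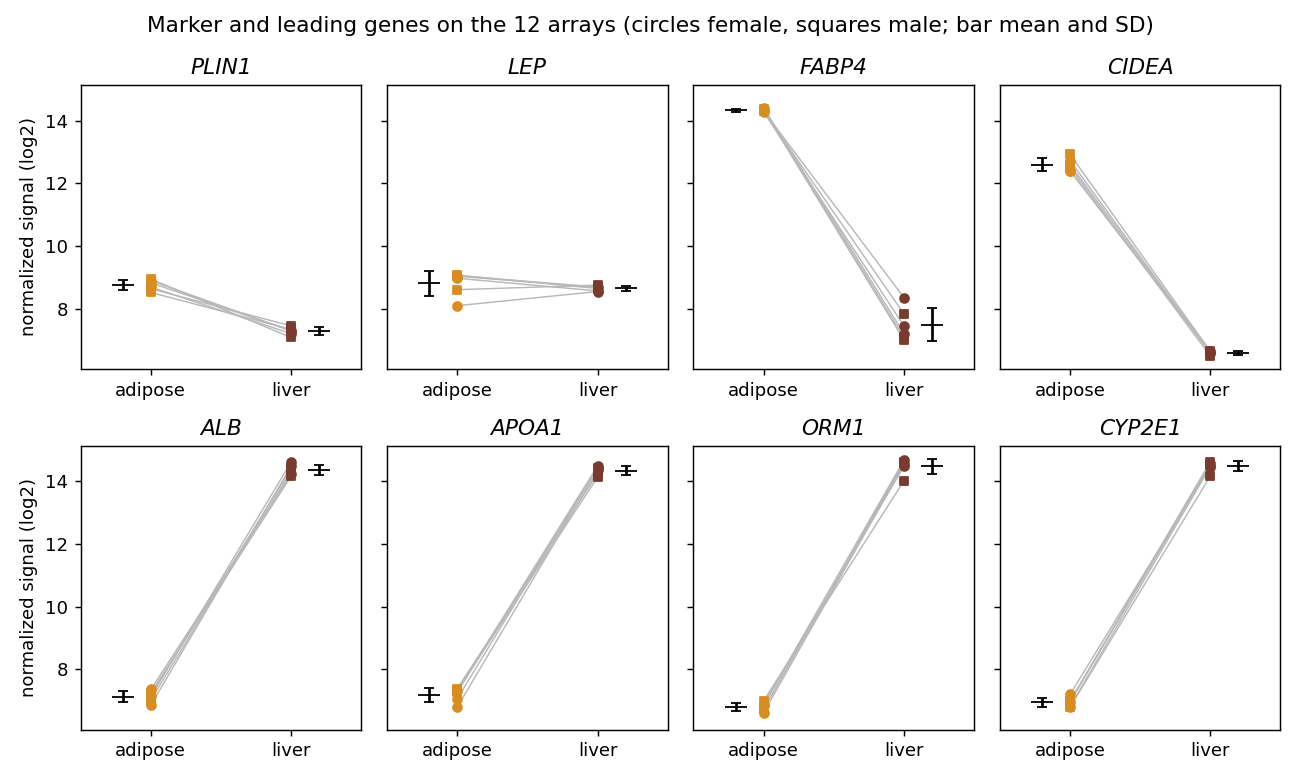
Normalized log2 signal of 8 genes on the 6 adipose and 6 liver arrays, with circles for females, squares for males, a line for each animal, and a bar for the mean and SD of a tissue. The tissues do not overlap for any of these genes but LEP, whose difference was 0.16.

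Probes detected numbered 12104 to 13210 in adipose and 10870 to 13215 in liver, lowest in liver replicate 4, and the median signal of an array before normalization was 104.4 to 147.0 in adipose and 93.1 to 110.9 in liver. Arrays of 1 tissue correlated at 0.964 to 0.983, and arrays of different tissues at 0.708 to 0.756. The brightest probe of an array had a signal of 26202 to 34456 in adipose and 20675 to 27532 in liver, close to where genes such as ALB lie, so changes of the brightest genes can be understated.

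Most genes differed between the tissues. Of 8224 genes tested, 2935 (35.7%) were higher in adipose and 2191 (26.6%) higher in liver, and the median difference of all genes was 0.07. The median SD between animals was 0.15 in adipose and 0.16 in liver, so small differences passed the test. The large changes leaned the other way. At least 4-fold changes were fewer in adipose, with 167 genes (2.03%), than in liver, with 291 genes (3.54%). Their median difference was 2.51 for the adipose genes and -3.15 for the liver genes. A change of 6 or more log2 units was measured for 2 adipose genes and 30 liver genes. On every array of the other tissue, 108 of the 167 adipose genes were still detected, against 90 of the 291 liver genes. The other tissue's arrays did not detect 26 of the adipose genes and 126 of the liver genes at all. The lean of the 4-fold counts depended on the processing. They were 441 and 477 with normexp background correction, and 85 and 105 with probes detected on all 12 arrays.

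**Figure D2:**
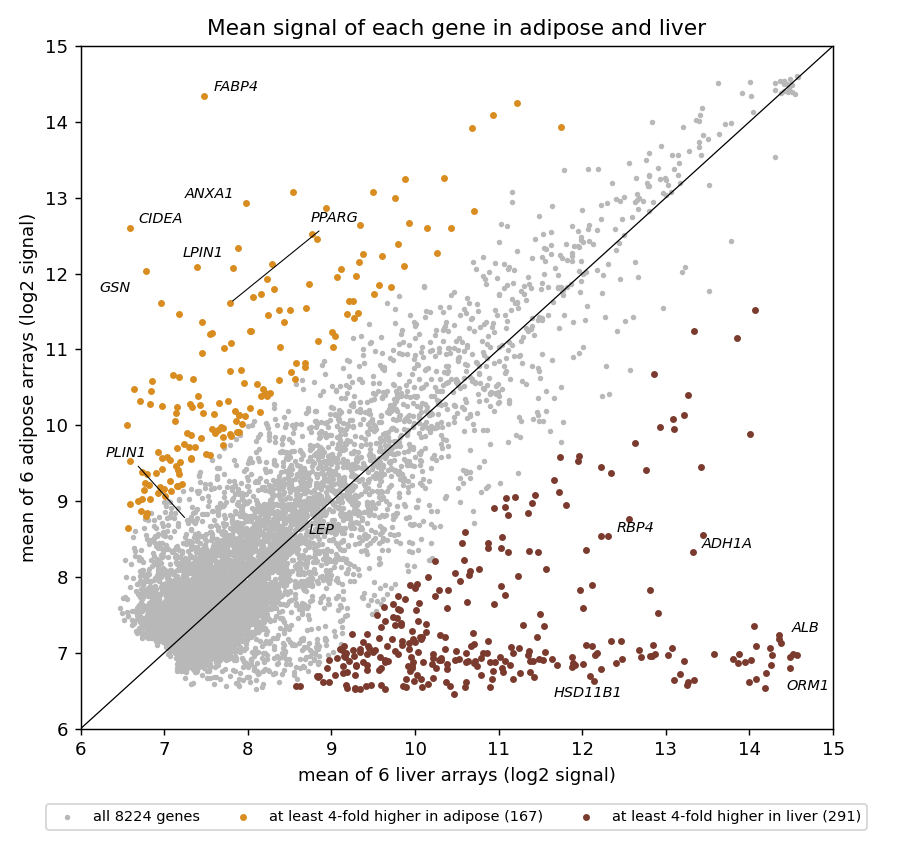
Mean log2 signal of each of 8224 genes over 6 adipose arrays (vertical) against its mean over 6 liver arrays (horizontal), with the line of equal signal; the 167 genes at least 4-fold higher in adipose and the 291 at least 4-fold higher in liver are coloured. Many liver genes lie along the floor of adipose signal, while most adipose genes keep a signal in liver.

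The largest adipose difference belonged to FABP4, the fatty acid binding protein of fat cells and capillary endothelium. It gave 14.28 to 14.41 (median 14.32) in adipose and 6.99 to 8.35 (median 7.32) in liver, a difference of 6.85 (standard error 0.17, adjusted p = 5.89e-11) that is 116-fold. CIDEA, a protein of the droplet surface, lay at 12.40 to 12.93 (median 12.56) in adipose and was detected on 0 liver arrays, which makes it at least 45.3-fold higher. FABP5, another fatty acid binding protein, was also detected on 0 liver arrays and was at least 22.8-fold higher. LPIN1, the phosphatidate phosphatase of triglyceride synthesis, differed by 4.68 (standard error 0.11, adjusted p = 5.95e-11). GSN, gelsolin, which severs actin filaments, differed by 5.25 (standard error 0.10, adjusted p = 7.79e-12) on the brighter of 2 probes and by 1.42 on the other. The next genes are known from stroma and vessels as well as fat cells. They were ANXA1 (4.95), a phospholipid binding protein, LGALS1 (4.54), a galectin, SPARCL1 (4.46), a matrix protein, CD34 (4.29), a surface protein of endothelium and progenitors, S100A6 (4.25), a calcium binding protein, CAVIN1 (3.94), a coat protein of caveolae, and GAS1 (3.91). One of the 3 kept CD34 probes differed by -0.29, against the brighter one. All 12 were taken among genes whose groups did not overlap, as was so for 2158 of 8224 genes on the adipose side.

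Of the 12 largest measured liver differences, 11 belong to secreted proteins. Their order is not settled, because 8 of the 12 were detected on 0 adipose arrays and have only a bound, which for SPINK1, SERPINC1, FGG and CRP lies below the measured differences of APOA1 (-7.17) and HAMP (-7.12), outside the 12. ORM1, the acid glycoprotein of the acute phase, lay at 14.02 to 14.68 (median 14.57) in liver and was detected on 0 adipose arrays, where it measured 6.61 to 7.00 (median 6.80). It was at least 165.6-fold higher in liver. FGG, the gamma chain of fibrinogen, was at least 134.3-fold higher, CRP, C-reactive protein, at least 134.7-fold, SERPINC1, antithrombin, at least 124.0-fold, APOA2, an HDL protein, at least 140.8-fold, SPINK1, a trypsin inhibitor, at least 117.0-fold, and HPX, hemopexin, at least 142.2-fold. HPR, a relative of haptoglobin, was at least 168.6-fold higher, but its transcript is so close to HP that the signals can be shared. TTR, the thyroxine carrier transthyretin, differed by -7.61 (standard error 0.09, adjusted p = 2.76e-13) and FGA, the fibrinogen alpha chain, by -7.18 (standard error 0.10, adjusted p = 6.09e-13). The 1 intracellular protein was CYP2E1, the ethanol-oxidizing P450, at 14.18 to 14.63 (median 14.51) in liver and 6.79 to 7.20 (median 6.96) in adipose. ALB completed the 12.

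Genes were compared list by list, beginning with the plasma proteins. Each count here and in the paragraphs below is read against the shares of all genes, 35.7% higher in adipose and 26.6% higher in liver. In the list of coagulation factors and inhibitors, of the 22 measured genes (of 28 on the list), 2 were higher in adipose and 20 higher in liver, with a median difference of -3.39, or -3.10 with the 13 genes not detected in the lower tissue at their bound. FGG, SERPINC1, FGA and KNG1 (at least 63.3-fold), kininogen, led it. The 2 genes higher in adipose are made by endothelium. They were VWF, von Willebrand factor, at 11.33 to 12.06 (median 11.95) in adipose and 8.12 to 8.56 (median 8.25) in liver, a difference of 3.49 (standard error 0.10, adjusted p = 1.53e-10), and PLAT, the tissue plasminogen activator, at least 3.18-fold higher in adipose. In the list of complement components and regulators, of the 25 measured genes (of 31 on the list), 0 were higher in adipose and 22 higher in liver, with a median difference of -2.16, or -2.06 with the 7 genes not detected in the lower tissue at their bound. The terminal components C8A (at least 32.4-fold), C6 (-5.18) and C5 (at least 29.6-fold) and the inhibitor VTN (at least 74.3-fold), vitronectin, led it. The 3 genes of C1q, made by macrophages, gave -0.45 for C1QC, which was called, and -0.19 and 0.11 for C1QB and C1QA, which were not, although C1QB was called at -0.35 without replicate 2. The acute phase and carrier proteins were all higher in liver, 22 of 22 measured, with a median of -5.47, or -5.37 with the 15 genes not detected in the lower tissue at their bound. Those 15, like the 13 and 7 above, passed the filter only through the tissue where they are high. Their direction was fixed on entry and lends the counts no support.

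Lipoprotein genes were called on both sides, 34.8% higher in adipose and 60.9% in liver, beside 35.7% and 26.6% of all genes. In this list, of the 23 measured genes (of 32 on the list), 8 were higher in adipose and 14 higher in liver, with a median difference of -1.36, the same with the 11 genes not detected in the lower tissue at their bound. The apolipoproteins APOA2, APOA1, APOC3 (-6.99) and APOB (at least 70.9-fold), the backbone of VLDL, were the liver's. The genes below were the highest of the adipose side. APOD, an apolipoprotein of many stromal cells, gave 9.24 to 11.65 (median 10.11) in adipose and was detected on 0 liver arrays, at least 9.1-fold. PLTP, the phospholipid transfer protein, differed by 1.68 (standard error 0.08, adjusted p = 1.51e-08), and ABCG1, a sterol exporter, was at least 1.6-fold higher.

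Bile acid genes are a hepatocyte program, and of the 18 measured genes (of 23 on the list), 1 was higher in adipose and 16 higher in liver, with a median difference of -2.09, or -2.01 with the 8 genes not detected in the lower tissue at their bound. SLC10A1, the bile acid importer of the sinusoidal membrane, lay at 11.09 to 11.91 (median 11.79) in liver and was at least 23.9-fold higher. CYP8B1, the sterol 12-alpha-hydroxylase, was at least 21.2-fold higher. SLC27A5, the bile acid CoA ligase, and CYP27A1, the sterol 27-hydroxylase, were detected on all adipose arrays too and differed by -3.97 (standard error 0.11, adjusted p = 1.75e-10) and -3.68 (standard error 0.10, adjusted p = 1.04e-10). The exception was AKR1D1, a steroid reductase of bile acid synthesis, at 0.26. Its call did not hold without replicate 1, 2, 3 or 5, where the difference of 0.25 to 0.26 was under 1.2-fold, and the difference was 0.01 with median centring in place of quantile normalization.

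The urea cycle and amino acid breakdown also stood on the liver side. For the urea cycle, of the 6 measured genes (of 13 on the list), 0 were higher in adipose and 6 higher in liver, with a median difference of -2.60, the same with the 2 genes not detected in the lower tissue at their bound. OTC, ornithine transcarbamylase, was at least 23.0-fold higher, ASS1, argininosuccinate synthase, differed by -4.53 (standard error 0.24, adjusted p = 4.07e-08), the ornithine carrier SLC25A15 by -3.03, and CPS1, the enzyme that opens the cycle, by -2.18. In amino acid catabolism, of the 25 measured genes (of 35 on the list), 1 was higher in adipose and 22 higher in liver, with a median difference of -2.44, or -2.07 with the 9 genes not detected in the lower tissue at their bound. TDO2 (-5.89), tryptophan dioxygenase, AGXT (-5.65), the glyoxylate aminotransferase, GPT (at least 19.7-fold), alanine aminotransferase, and HGD (-4.34) of tyrosine breakdown led the liver side. The gene on the other side was BCAT2, the mitochondrial aminotransferase of branched-chain amino acids, a step known to be weak in liver. BCAT2 lay at 8.43 to 8.94 (median 8.82) in adipose and 7.09 to 7.52 (median 7.27) in liver, a difference of 1.44 (standard error 0.09, adjusted p = 1.09e-07), and the tissues did not overlap.

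Detoxification genes were mostly higher in liver. Of the cytochrome P450 enzymes, 24 measured genes (of 43 on the list), 2 were higher in adipose and 18 higher in liver, with a median difference of -1.62, the same with the 11 genes not detected in the lower tissue at their bound. CYP2E1, CYP2C8 (at least 51.5-fold), CYP4A11 (-5.75) and CYP2D6 (at least 27.7-fold) led the liver side. CYP1B1, an extrahepatic P450, was the reverse, at 9.23 to 9.80 (median 9.53) in adipose and not detected on any liver array, at least 5.43-fold higher. CYP26B1, which degrades retinoic acid, differed by 0.97 (standard error 0.15, adjusted p = 1.57e-04). Among conjugation and detoxification enzymes, of the 36 measured genes (of 52 on the list), 2 were higher in adipose and 33 higher in liver, with a median difference of -2.41, or -2.29 with the 16 genes not detected in the lower tissue at their bound. GSTA1 (at least 113.7-fold), GSTA2 (at least 107.7-fold), UGT2B11 (at least 87.7-fold) and PON3 (at least 52.7-fold) led it, although the near-identical GSTA and UGT2B copies can share signal and their split is uncertain. GSTP1, the pi-class glutathione transferase, was higher in adipose by 2.82 (standard error 0.08, adjusted p = 2.02e-10), and SULT1A1, a phenol sulfotransferase, by 0.38.

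Carbohydrate genes included the enzymes that release glucose and those that take up fructose. In gluconeogenesis and glycogen, of the 14 measured genes (of 21 on the list), 0 were higher in adipose and 9 higher in liver, with a median difference of -0.73, or -0.63 with the 2 genes not detected in the lower tissue at their bound. PCK1, the cytosolic phosphoenolpyruvate carboxykinase, lay at 10.31 to 13.03 (median 12.28) in liver and 7.61 to 8.02 (median 7.86) in adipose, a difference of -4.15 (standard error 0.25, adjusted p = 1.15e-07). FBP1, fructose bisphosphatase, was at least 13.0-fold higher, PCK2, the mitochondrial carboxykinase, differed by -1.87, and UGP2, which makes UDP-glucose, by -1.42. In fructose and galactose handling, of the 8 measured genes (of 12 on the list), 1 was higher in adipose and 5 higher in liver, with a median difference of -1.41, the same with the 2 genes not detected in the lower tissue at their bound. KHK, ketohexokinase, was at least 6.86-fold higher in liver, SLC2A2, the hepatic glucose and fructose transporter, at least 5.13-fold, TKFC, triokinase, differed by -2.40, and GLYCTK, glycerate kinase, by -1.79. SLC2A5, the dedicated fructose transporter, was higher in adipose, at 7.59 to 9.26 (median 7.97) against 6.75 to 7.21 (median 6.95) in liver, a difference of 1.33 (standard error 0.24, adjusted p = 4.96e-04).

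Fatty acid oxidation and fatty acid synthesis pointed in opposite directions. For ketone bodies and fatty acid oxidation, of the 21 measured genes (of 29 on the list), 1 was higher in adipose and 16 higher in liver, with a median difference of -1.09, the same with the 1 gene not detected in the lower tissue at its bound. The thiolase ACAA1 (-2.51), the hydratase ECHS1 (-1.97), the reductase DECR1 (-1.68) and BDH1 (-1.65), which makes hydroxybutyrate, led the liver side. OXCT1, the enzyme that lets tissues burn ketone bodies and that hepatocytes are known to lack, was detected on 6 adipose and 0 liver arrays and was at least 2.55-fold higher in adipose. For fatty acid and triglyceride synthesis, of the 20 measured genes (of 29 on the list), 14 were higher in adipose and 2 higher in liver, with a median difference of 0.72, the same with the 2 genes not detected in the lower tissue at their bound, beside 35.7% of all genes higher in adipose. LPIN1 led it. FASN, fatty acid synthase, gave 11.95 to 14.47 (median 13.17) in adipose and 8.00 to 11.89 (median 10.57) in liver, a difference of 2.91 (standard error 0.42, adjusted p = 1.02e-04). It was among the most variable genes of liver, with an SD of 1.46, and the tissues did not overlap. THRSP, a lipogenic nuclear protein, differed by 2.63 (standard error 0.34, adjusted p = 5.09e-05) with overlapping groups, and AGPAT2, the acyltransferase that makes phosphatidate, by 2.06 (standard error 0.10, adjusted p = 1.64e-08). The exceptions were MLXIPL (-0.88), the glucose-sensing factor ChREBP, and ACSL1 (at least 1.31-fold), an acyl-CoA synthetase.

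Cholesterol synthesis went with liver. Here, of the 13 measured genes (of 23 on the list), 1 was higher in adipose and 10 higher in liver, with a median difference of -1.20. ACAT2, the thiolase of the first step, differed by -3.14 (standard error 0.13, adjusted p = 6.61e-09), the methyl sterol oxidase MSMO1 by -2.89, the sterol isomerase EBP by -2.81 and the desaturase SC5D by -2.30, while HSD17B7, a ketoreductase of the late pathway, was higher in adipose by 0.74. The peroxisomal list had 13 of 17 measured genes higher in liver and 0 higher in adipose. It was led by AGXT, by UOX, the urate oxidase that humans have lost, at least 15.2-fold, by PECR (-2.78), which reduces enoyl-CoA, and by the bile acid oxidase ACOX2 (-2.78). In iron, heme and metal handling, of the 22 measured genes (of 33 on the list), 2 were higher in adipose and 17 higher in liver, with a median difference of -1.60, the same with the 3 genes not detected in the lower tissue at their bound. HAMP, hepcidin, gave 13.70 to 14.71 (median 14.55) in liver and 7.11 to 7.44 (median 7.23) in adipose, a difference of -7.12 (standard error 0.14, adjusted p = 8.25e-12), and the metallothioneins MT2A (-4.88) and MT1G (-4.42) followed hemopexin. BLVRA, biliverdin reductase, was higher in adipose by 2.25 (standard error 0.07, adjusted p = 6.72e-10), and PPOX, of heme synthesis, by 0.73.

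**Figure D3:**
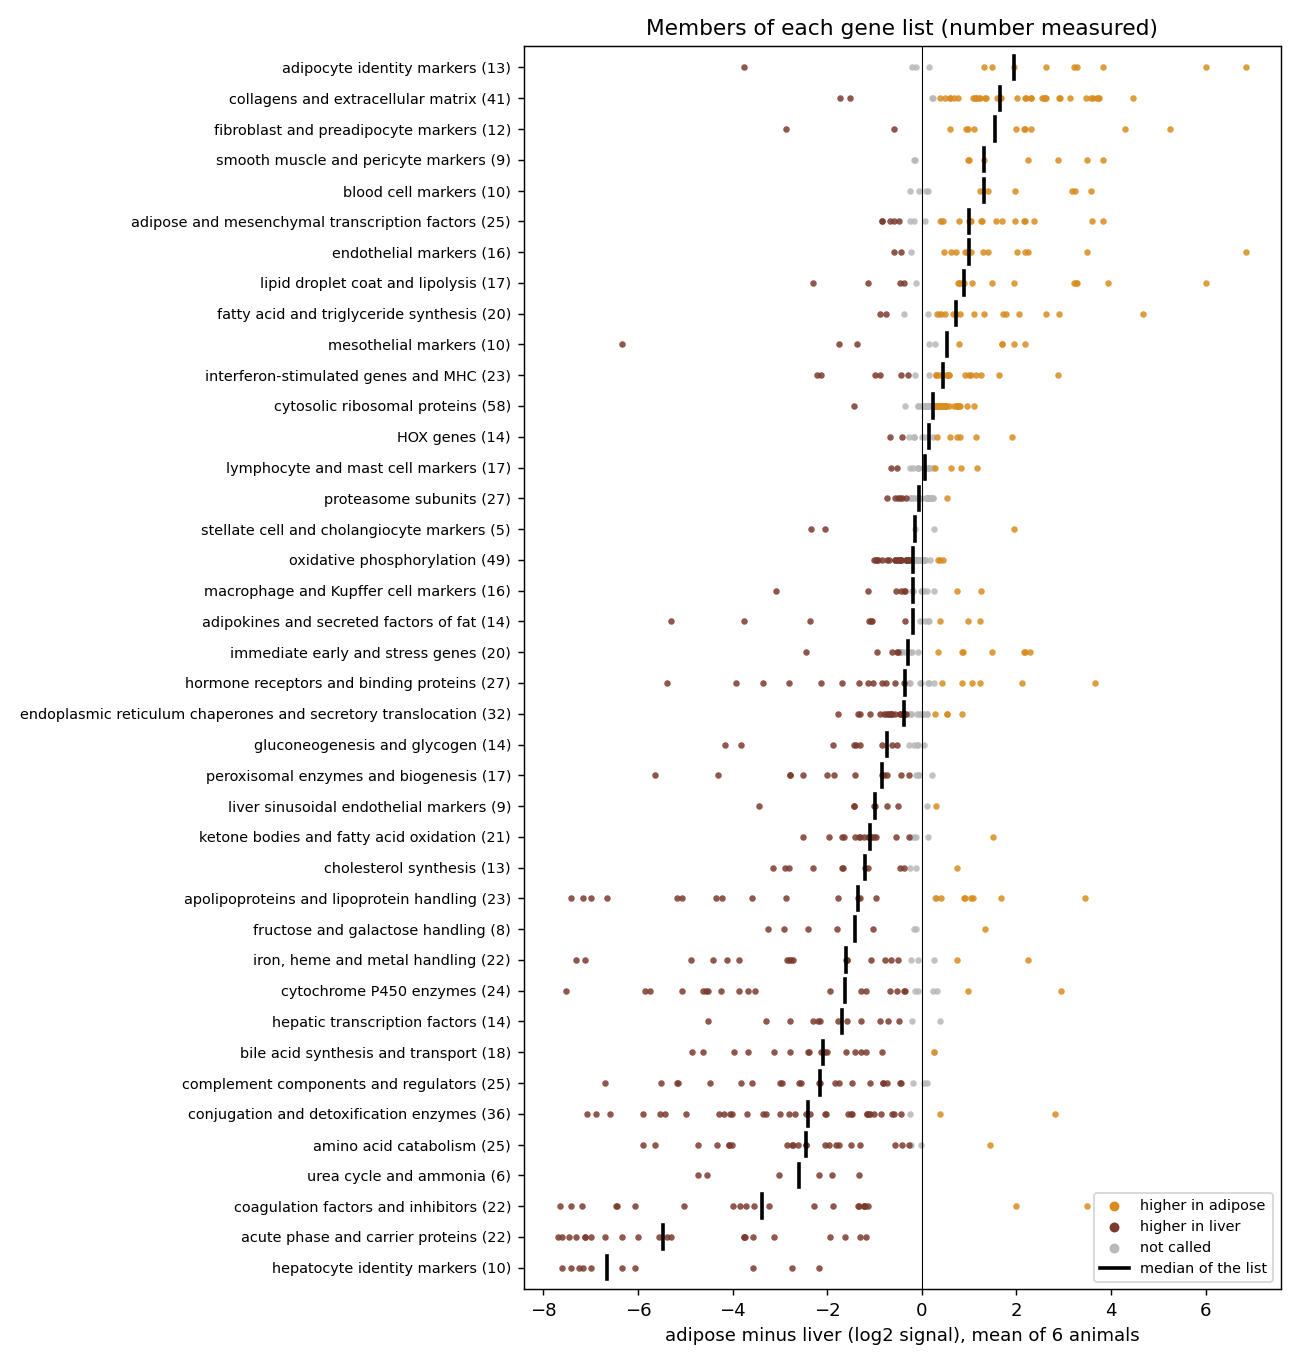
Difference (adipose minus liver, log2 signal, mean of 6 animals) of every measured member of 40 gene lists, coloured by call, with a black bar at the median of the list and the number measured in brackets. The medians run from -6.66 for hepatocyte markers to 1.96 for fat cell markers, and most lists hold members on both sides.

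Proteins of the lipid droplet split by tissue. In this list, of the 17 measured genes (of 33 on the list), 12 were higher in adipose and 4 higher in liver, with a median difference of 0.89, or 0.78 with the 5 genes not detected in the lower tissue at their bound. CIDEA and CIDEC, which fuse droplets, and the caveolar genes CAVIN1 and CAV1 (3.27) led it, and CIDEC was at least 8.95-fold higher in adipose. CIDEB, the third family member, known for the assembly of VLDL, went the other way, with 8.75 to 9.40 (median 9.19) in liver and 0 adipose arrays detected, at least 4.04-fold. PLIN2, the droplet coat of most cells that are not fat cells, differed by -1.14 (standard error 0.15, adjusted p = 4.81e-05), so the perilipins PLIN1 and PLIN2 lay on opposite sides. ADRA2A, an adrenergic receptor that restrains lipolysis, differed by -0.47.

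Secreted factors known from fat were not, as a list, higher in adipose. The shares were 21.4% higher in adipose and 50% in liver, beside 35.7% and 26.6% of all genes. Here, of the 14 measured genes (of 27 on the list), 3 were higher in adipose and 7 higher in liver, with a median difference of -0.20, the same with the 1 gene not detected in the lower tissue at its bound. RBP4, the retinol carrier, gave 11.75 to 12.59 (median 12.40) in liver and 7.67 to 9.31 (median 8.64) in adipose. Its difference was -3.76, that of AGT, angiotensinogen, was -5.31, and those of RARRES2, chemerin, and FST, follistatin, were -2.37 and -1.12. SPARC (1.23), SFRP2 (at least 1.36-fold) and BMP2 (0.39), a matrix protein, a Wnt inhibitor and a growth factor, were higher in adipose.

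Among hormone receptors and binding proteins, of the 27 measured genes (of 39 on the list), 6 were higher in adipose and 13 higher in liver, with a median difference of -0.36, or -0.32 with the 6 genes not detected in the lower tissue at their bound. The counts are 22.2% and 48.1%, beside 35.7% and 26.6% of all genes. HSD11B1, which regenerates cortisol inside the cell and is known from both tissues, gave 11.45 to 12.49 (median 12.11) in liver and 6.62 to 6.77 (median 6.71) in adipose, where 0 arrays detected it. It was at least 31.4-fold higher in liver, and all 3 of its kept probes were lower in adipose, by -5.39 to -3.65. SHBG (-3.92), the sex hormone carrier, DIO1 (at least 7.3-fold), the deiodinase, and IGFBP1 (at least 5.48-fold) were the next on the liver side. The binding proteins of insulin-like growth factors divided. IGFBP6 (3.66), IGFBP5 (2.11) and IGFBP7 (1.23) were higher in adipose, while IGFBP1 was detected on 0 adipose arrays, which makes it at least 5.48-fold higher in liver.

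Where a step has 1 form known from liver and another from other tissues, both forms were compared in the steps for which both were measured. In 7 of these 9 steps the form listed for liver was higher in liver. They are CIDEB against CIDEA and CIDEC, GSTA1 and GSTA2 against GSTP1 and GSTM5, the fatty acid transporters SLC27A2 and SLC27A5 against SLC27A1 and CD36, the glucose transporter SLC2A2 against SLC2A1, MAT1A against MAT2A for S-adenosylmethionine, FBP1 against FBP2, and the carboxykinase PCK2 against PCK1. CIDEB, GSTA1, GSTA2, SLC27A2, SLC2A2, MAT1A and FBP1 were detected on 0 adipose arrays, and CIDEA, CIDEC and SLC27A1 on 0 liver arrays. They passed the filter only through 1 tissue, so their direction was fixed on entry and lends the count no support. Of all genes, 26.6% were higher in liver. The other form was higher in adipose for CIDEA, CIDEC, GSTP1, SLC27A1 (at least 1.23-fold), CD36 (2.17) and MAT2A (0.41). It was not called for SLC2A1 (0.07, adjusted p = 0.555) and FBP2 (-0.28, adjusted p = 0.122). GSTM5 (-1.10) and PCK1 (-4.15) were higher in liver, as PCK2 was (-1.87). PCK1 lay further to the liver side than PCK2, so this step shows no split between the forms and lends the 7 no support. Which form was entered for liver was set by the list, for PCK2, GPAM and DGAT2 too, and was not tested. MAT1A lay at 10.17 to 10.72 (median 10.46) in liver and was at least 10.2-fold higher, whereas MAT2A lay at 10.46 to 11.44 (median 10.72) in adipose and 10.15 to 10.62 (median 10.33) in liver. SLC2A3, SLC2A4 and GSTM3 did not pass the filter or were not in the probe table. In the 2 steps left both forms were higher in adipose, GPAM (1.73) and GPAT3 (1.10), and DGAT2 (0.67) and DGAT1 (0.72). The call of DGAT2 was lost without replicate 4 (0.58) or 6 (0.51), and FBP2 was called without replicate 4 (-0.40). GPAT4 was not measured.

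**Figure D4:**
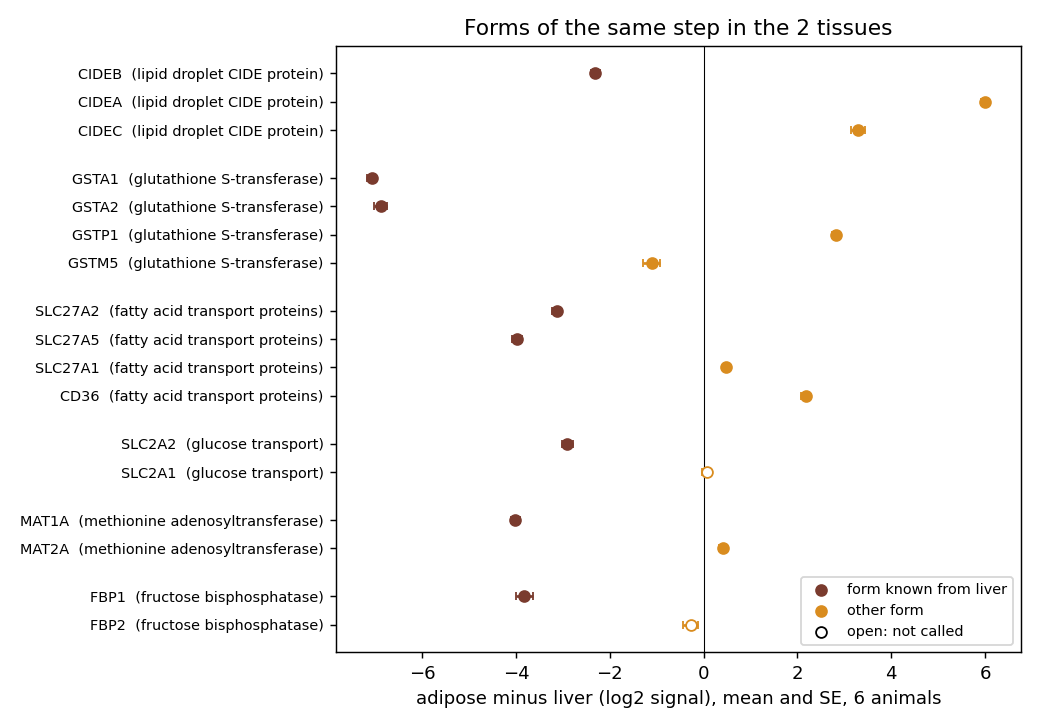
Difference (adipose minus liver, log2 signal) with its standard error over 6 animals for the forms of 6 steps, brown for the form known from liver and orange for the other form; open points were not called. Every brown point drawn is below 0, and the orange points range from -1.10 for GSTM5 to 6.01 for CIDEA. The brown genes other than SLC27A5 were detected on 0 adipose arrays, so their direction was fixed on entry. The steps were chosen. Not drawn are the carboxykinases (PCK2 -1.87, PCK1 -4.15) and the steps of GPAM (1.73) and DGAT2 (0.67). The list entered GPAM and DGAT2 as the liver forms, and they were higher in adipose.

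Transcription factors that define hepatocytes were higher in liver or not called. In the hepatic list, of the 14 measured genes (of 24 on the list), 0 were higher in adipose and 12 higher in liver, with a median difference of -1.68, or -1.46 with the 7 genes not detected in the lower tissue at their bound. CREB3L3, a membrane-bound factor of the fasted liver, lay at 10.67 to 11.76 (median 11.18) in liver and was at least 16.6-fold higher. FOXA2 and FOXA1, pioneer factors of endoderm, were at least 5.9-fold and 4.44-fold higher, and ATF5 differed by -3.30 (standard error 0.27, adjusted p = 1.37e-06). In the list of adipose and mesenchymal factors, of the 25 measured genes (of 36 on the list), 16 were higher in adipose and 5 higher in liver, with a median difference of 1.00, or 0.75 with the 9 genes not detected in the lower tissue at their bound. PPARG, the master regulator of fat cells, gave 11.07 to 12.04 (median 11.69) in adipose and 7.48 to 8.12 (median 7.79) in liver, a difference of 3.82 (standard error 0.10, adjusted p = 1.11e-10). Its 3 kept probes all lay above 0, from 1.35 to 3.82. OSR1, a factor of mesenchymal progenitors, was at least 9.34-fold higher, EBF1, a factor of fat cell development, at least 3.65-fold, and WT1, known in visceral fat from mesothelial and progenitor cells, at least 4.04-fold. LHX2 (at least 1.32-fold), KLF15 (-0.85) and HOXC10 (-0.66) were higher in liver. Of the HOX genes, which keep positional identity, 6 of 14 measured (of 39) were higher in adipose, led by HOXB5 (1.91), HOXB8 (at least 1.64-fold), HOXB4 (at least 1.43-fold) and HOXB7 (at least 1.43-fold), and 2, HOXC10 and HOXC5 (-0.41), were higher in liver. These are 42.9% and 14.3%, beside 35.7% and 26.6% of all genes.

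The extracellular matrix was higher in adipose almost throughout. Of 41 measured genes (of 54), 37 were higher in adipose, 19 of them at least 4-fold, with a median difference of 1.65, the same with the 6 genes not detected in the lower tissue at their bound, beside 0.07 for all genes. SPARCL1, FBLN1 (3.75) and EFEMP1 (3.70), of the fibulin family, and LAMA4, a laminin of vessel basement membrane that was at least 11.2-fold higher, led it. The 2 genes higher in liver were COL18A1, the collagen that carries endostatin, at 9.62 to 10.05 (median 9.95) in liver and 7.83 to 8.28 (median 8.21) in adipose, and BGN, biglycan, at 11.87 to 12.75 (median 12.28) and 10.40 to 11.31 (median 10.75). Their differences were -1.74 (standard error 0.07, adjusted p = 2.34e-09) and -1.51 (standard error 0.19, adjusted p = 3.48e-05). Fibroblast and preadipocyte markers counted 10 higher in adipose of 12 measured, led by GSN, CD34, MFAP5 (2.31) and DCN (2.19), decorin. DPT, dermatopontin, went against them, at 12.63 to 14.07 (median 13.27) in liver and 10.15 to 10.60 (median 10.39) in adipose, a difference of -2.86 (standard error 0.13, adjusted p = 1.08e-08), as did DPP4 (-0.59), a peptidase of preadipocytes.

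Vessels and muscle of the vessel wall followed the matrix. Endothelial markers were higher in adipose for 13 of 16 measured genes, with FABP4, VWF, PECAM1 (2.24), a junction protein, and CD36 at the head. FABP4 is also on the list of fat cell markers and CD36 is also a fatty acid transporter, so neither is particular to vessels. KDR (-0.58), the main VEGF receptor, and TIE1 (-0.44) were higher in liver. Markers of the liver sinusoid, whose endothelium is fenestrated and scavenging, gave the reverse, with 7 of 9 higher in liver. FCN2 was at least 8.77-fold, STAB2 at least 2.5-fold and OIT3 at least 1.39-fold higher there, FCN3 differed by -1.43, and FCGR2B was higher in adipose (0.30), though not past 1.2-fold without replicate 4 (0.25). Smooth muscle markers were higher in adipose for 7 of 9, led by ACTA2 (3.84), MYH11 (3.49), TAGLN (2.89) and MYL9 (2.24), which encode contractile proteins. Mesothelial markers were mixed, with 5 of 10 measured higher in adipose and 3 higher in liver, beside 35.7% and 26.6% of all genes. WT1, KRT19 (at least 3.14-fold), BNC1 (at least 2.38-fold) and RSPO1 (at least 2.19-fold) were higher in adipose and detected on 0 liver arrays, while HP (at least 68.4-fold), C3 (-1.75) and BCHE (-1.36), which hepatocytes also make, were higher in liver. Of stellate cell and bile duct markers 5 of 16 were measured, with a median difference of -0.14. COLEC11 (at least 4.68-fold) and RELN (-2.05) were higher in liver. KRT19, which is on this list too, was the 1 gene higher in adipose.

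Immune cell markers went both ways. Of macrophage and Kupffer cell markers 12.5% were higher in adipose and 37.5% in liver. Of lymphocyte and mast cell markers these were 23.5% and 11.8%, both below the 35.7% and 26.6% of all genes. For macrophages and Kupffer cells, of the 16 measured genes (of 22 on the list), 2 were higher in adipose and 6 higher in liver, with a median difference of -0.19. CD14, the lipopolysaccharide co-receptor, gave 12.63 to 13.52 (median 13.27) in liver and 9.84 to 10.63 (median 10.05) in adipose, a difference of -3.08 (standard error 0.15, adjusted p = 1.84e-08). The scavenger receptors CD163 (-1.13) and MARCO (-0.55) and C1QC were also higher in liver, whereas CD74 (1.24), the invariant chain of MHC class II, and LYZ (0.74), lysozyme, were higher in adipose. For lymphocytes and mast cells, of the 17 measured genes (of 29 on the list), 4 were higher in adipose and 2 higher in liver, with a median difference of 0.07, the same with the 3 genes not detected in the lower tissue at their bound. JCHAIN (1.17), of plasma cells, CPA3 (at least 1.53-fold), of mast cells, CD8A (0.61) and GZMK (0.28) were higher in adipose, and POU2AF1 (at least 1.31-fold) and CD4 (at least 1.35-fold) in liver. The call of GZMK was lost without replicate 2 (0.19). Of interferon-stimulated and MHC genes, 15 of 23 were higher in adipose and 6 in liver. The adipose side was led by the class II genes HLA-DMA (2.88), HLA-DRA (1.62) and CD74 and by B2M (1.16), and the liver side by ISG15 (-2.22), IFI6 (-2.14) and MX1 (-0.99), which respond to interferon.

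Markers of blood moved with adipose. Of 10 measured, 6 were higher in adipose and 0 in liver, or 60% and 0% beside 35.7% and 26.6% of all genes. HBA1, alpha globin, gave 12.45 to 14.16 (median 12.77) in adipose and 8.64 to 10.02 (median 9.59) in liver, a difference of 3.57 (standard error 0.27, adjusted p = 6.43e-07). HBA2 (3.23), which is nearly identical to HBA1, HBB (3.17) and the neutrophil gene S100A9 (1.97) followed. The summed signal of the list, on the log2 scale, was 15.0 to 16.2 in adipose and 11.8 to 12.9 in liver. Its part in the endothelial and immune differences was not tested. Hepatocyte markers summed to 10.2 to 10.3 in adipose and 16.7 to 17.0 in liver, and in adipose ALB and APOA1 were detected on 4 arrays each and the other 8 markers on 0 or 1.

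Machinery common to all cells differed by smaller amounts. Oxidative phosphorylation had 21 of 49 measured genes higher in liver and 3 in adipose, with a median of -0.19. The complex II genes SDHC (-1.01) and SDHA (-0.97), ATP5F1C (at least 1.52-fold) and COX7C (-0.93) led it, and NDUFA10 (0.44), UQCR10 (0.39) and NDUFB2 (0.35) went the other way, NDUFB2 not past 1.2-fold without replicate 6 (0.26). Cytosolic ribosomal proteins had 28 of 58 higher in adipose, a median of 0.24, with RPL22 (1.10), RPL13A (0.95), RPS4X (0.81) and RPS3A (0.79) first. RPL24 alone was higher in liver (at least 2.13-fold), and its probe was detected on 0 adipose arrays. Proteasome subunits had 6 of 27 higher in liver and 1, PSMD2 (0.53), in adipose, or 22.2% and 3.7% beside 26.6% and 35.7% of all genes. The endoplasmic reticulum of a secreting cell was represented by 32 genes, of which 18 were higher in liver. They were led by XBP1 (-1.77), a factor of the unfolded protein response, the signal peptidase parts SEC11C (-1.36) and SPCS1 (-1.11) and the chaperone HSP90B1 (-1.30). CANX (0.85), calnexin, and the signal recognition particle genes SRP14 (0.53) and SRP9 (0.53) were higher in adipose.

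Some genes varied widely between animals of 1 tissue. FOS, an immediate early transcription factor, had the largest SD of adipose, 2.04, and gave 7.14 to 12.32 (median 10.04) there and 7.18 to 9.25 (median 8.83) in liver. Its difference of 1.48 (standard error 0.60, adjusted p = 0.0476) passed the threshold narrowly and was lost without replicate 1, 2, 3 or 5, where the adjusted p was 0.115 to 0.141. The difference was 2.90 in females and 0.06 in males, a gap that did not pass the test (adjusted p = 0.548). Replicates 2 and 3, both female, had the highest adipose values of FOS. CCN1, an immediate early matrix protein, ranged over 7.77 to 11.89 (median 9.16) in adipose and 6.81 to 7.97 (median 7.03) in liver. In the list of immediate early and stress genes, of the 20 measured genes (of 27 on the list), 7 were higher in adipose and 5 higher in liver, with a median difference of -0.30, which is 35% and 25% beside 35.7% and 26.6% of all genes. KLF2 (2.29), CCN1 (2.18), KLF4 (2.17) and FOS were higher in adipose, and the stress genes GADD45B (-2.45) and GADD45A (-0.94) and the receptor NR4A2 (-0.64) higher in liver. The call of NR4A2 was lost without replicate 4, 5 or 6 (-0.64, -0.42 and -0.49). In liver the most variable gene was FOXQ1, a forkhead factor, at 7.50 to 11.94 (median 8.85). SLC13A5, the citrate importer, ranged over 8.37 to 12.36 (median 11.12) and SAA1, an acute phase protein, over 8.65 to 11.79 (median 10.99). All 3 were detected on 0 adipose arrays.

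The tissue difference was then compared between females and males. It differed for 1 of 8224 genes (0.0122%), MYC, a transcription factor of cell growth, and 523 genes had an unadjusted p under 0.05. Over all 6 animals MYC was not called (-0.36, adjusted p = 0.256). It was higher in adipose in the 3 females, by 0.26 to 0.60, and higher in liver in the 3 males, with differences of -1.56 to -0.997. The mean differences were 0.47 in females and -1.19 in males, a gap of 1.65 (standard error 0.19, adjusted p = 0.0457, limma). On HFCS the same animals had the higher MYC mean in adipose in both sexes. It was 8.63 against 7.49 in liver for females, and 9.12 against 8.73 for males. With 1 animal less the count of genes was 0 to 6, and it was 0 without replicate 1, 2 or 3 and 6 without replicate 5. Without replicate 6 the 1 gene called had a gap towards liver, unlike MYC. The call of MYC was thus lost without replicate 1, 2, 3 or 6.

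The same animals were biopsied again after 7 weeks on HFCS, and the tissue difference changed for 3 of 8224 genes (0.0365%), with 681 at an unadjusted p under 0.05. RASD1, a Ras-related protein induced by glucocorticoid, gave 7.70 to 10.94 (median 9.46) in liver on chow and 7.24 to 8.26 (median 8.08) on HFCS. In adipose it gave 6.94 to 8.12 (median 7.80) and 7.62 to 8.98 (median 8.40). Its adipose minus liver difference went from -1.89 to 0.41, a change of 2.29 (standard error 0.24, adjusted p = 0.00426). GDF15, a stress-induced hormone, gave 7.52 to 9.23 (median 8.50) in liver on chow and 6.82 to 7.81 (median 7.00) on HFCS, and stayed between 6.80 and 7.17 in adipose. Its difference changed by 1.51 (adjusted p = 0.0104). GDF15 was detected on 0 adipose arrays of either diet, on 6 livers on chow and on 2 on HFCS, so the size of this change rests on signals not above background. With each array's signals raised to its lowest detected signal, an alternative chosen after the data were seen, the change was 1.31 and was not called (adjusted p = 0.232), and those of RASD1 and GADD45B were 2.26 and 1.29 (adjusted p = 0.034 and 0.0221). GADD45B gave 9.66 to 10.81 (median 10.39) in liver on chow and 8.53 to 9.80 (median 9.20) on HFCS, and its difference changed by 1.29 (adjusted p = 0.00426). With 1 animal less 2 to 5 genes were called. All 3 changed the same way in 6 of 6 animals, and their liver means fell by 1.69, 1.40 and 1.16 log2 units, that of GDF15 to a level not above background in 4 of 6 livers. Without the animal as a block 0 genes were called, no animals stayed on chow, and diet and time cannot be told apart.

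**Figure D5:**
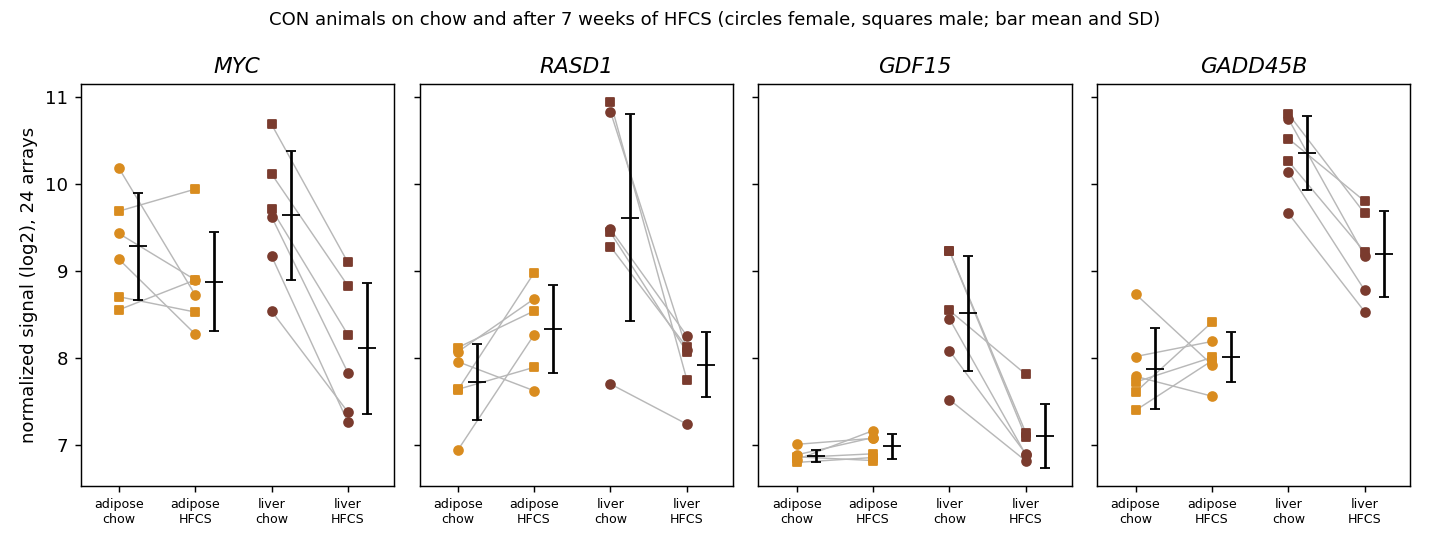
Normalized log2 signal of the 4 genes whose tissue difference differed, MYC between the sexes and the other 3 between the diets, in adipose and liver of the 6 CON animals on chow and after 7 weeks of HFCS, with circles for females, squares for males, a line for each animal and a bar for the mean and SD. All 4 genes were lower in all 6 livers on HFCS, with a mean change of -1.53 for MYC.

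The contrast was repeated on arrays that played no part in these calls. In the CON arrays on HFCS, which come from the same animals, 36.2% of genes were higher in adipose and 27.1% higher in liver. Of the 167 genes at least 4-fold higher in adipose on chow, 166 were called the same way there. Of the 291 liver genes, 291 were called the same way. The exception was IGLL1, an immunoglobulin light chain-like gene, at 2.01 on chow and 1.15 on HFCS. At least 4-fold on HFCS too were 143 of the 167 and 274 of the 291. Of all 5126 genes called on chow, 4605 were called the same way. In the MUN offspring on chow, 6 other animals, 18.9% of genes were higher in adipose and 18.4% higher in liver. There 165 of the 167 and 269 of the 291 genes were called the same way, 110 and 222 of them at least 4-fold. Of the 5126 genes called in CON, 2919 were called the same way. The liver arrays of MUN replicates 4 and 6 had the fewest probes detected, 10136 and 9891 against 11426 to 12918 on the other 4. Without these animals the shares were 33.8% and 25.3%, and 166 of the 167 and 291 of the 291 genes were called. At least 4-fold were 147 and 267 of them, and 4415 of the 5126 calls were made the same way. C1QC was called the opposite way in MUN, at 0.89, and at 0.69 without those animals. The tissue difference itself differed between MUN and CON for 0 of 8224 genes (0%), with or without those animals, and 318 and 352 genes had an unadjusted p under 0.05. This comparison and that of the diets share the CON arrays on chow.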

How the data were processed

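RNA of 12 biopsies, 6 of omental adipose tissue and 6 of liver from the same 6 CON animals on chow, was labelled with the Ambion Illumina TotalPrep kit and hybridised to HumanHT-12 v4 BeadChips by the authors, who read them in GenomeStudio and processed them in Partek (versions not given in the sources used here). The deposited non-normalized table holds linear signal intensity for 47231 probes and a detection score, which the deposited columns give as 1 minus a detection p. The authors' value table, used as an alternative, holds quantile normalized intensity. No background was subtracted here. Probes with a score above 0.95 on at least 6 of the 12 arrays were kept (12458, of which 9723 have 1 gene symbol), put on a log2 scale and quantile normalized, and each of 8224 genes was read on its brightest kept probe. Of the 1317 genes with several kept probes, 186 were called although another probe had the opposite sign, among the named genes AKR1D1, B2M, CD34, GPAM, HGD, SRP14 and SULT1A1. The difference between the tissues was fitted in limma 3.58.1 (R 4.3.3) with the animal as a block. Samples with the same number are the same animal by the labels, and tissues of an animal deviated together, with correlations of 0.131 to 0.279. P-values were adjusted by Benjamini-Hochberg over all genes tested. A gene detected on 0 of 6 arrays of a tissue has only a bound there, given as at least N-fold, against the higher of the lowest detected signal and the gene's own signal on each array. The differences of the tissue difference between sexes, diets and maternal groups were fitted in limma on the difference within each animal. The number of arrays limits precision.

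The genes named are 4 markers, the 12 largest measured differences in each direction, up to 4 genes of each list in the direction of most of its calls and up to 3 in the other, the forms of compared steps, and the genes called in the difference tests. ADIPOQ, C1QA, C1QB, FOXQ1, SLC13A5, SAA1 and IGLL1, and the genes of the closing section, were chosen after their values were seen. Members and gene lists were chosen with earlier results of these data known. Probes of near-identical genes (GSTA1 and GSTA2, HP and HPR, UGT2B copies, HBA1 and HBA2) cannot be assigned with certainty. The fits were tested on simulated data. Alternatives were other filters, background corrections, normalizations, probes, weights, blocks and animals.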

Additional observations from a re-analysis of the deposited data

Results flagged for a closer look

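Among the 230 named genes, 28 of 460 groups of 6 arrays held 1 array far from the others, by Dixon's criterion. Chance alone gives about 1 in 20. Values are normalized log2 signals, each beside the range of the other 5 arrays.

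The high values of adipose were these. ABCG1 was 8.76 in replicate 2 (7.37 to 7.81 in the others), C3 was 12.70 in replicate 2 (11.36 to 11.85 in the others) and CRP was 6.96 in replicate 1 (6.65 to 6.75 in the others). GPT was 6.88 in replicate 1 (6.60 to 6.70 in the others), IFI6 was 10.12 in replicate 1 (8.63 to 9.10 in the others) and JCHAIN was 10.22 in replicate 4 (7.89 to 8.50 in the others). KHK was 6.78 in replicate 1 (6.61 to 6.64 in the others) and SLC10A1 was 7.10 in replicate 3 (6.71 to 6.83 in the others).

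The low values of adipose were these. COL18A1 was 7.83 in replicate 6 (8.20 to 8.28 in the others), CREB3L3 was 6.57 in replicate 5 (6.66 to 6.70 in the others) and FOXQ1 was 6.54 in replicate 6 (6.70 to 6.76 in the others). KRT19 was 7.56 in replicate 3 (8.73 to 9.33 in the others).

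The high values of liver were these. GSN was 7.12 in replicate 2 (6.64 to 6.80 in the others), GZMK was 7.27 in replicate 3 (6.86 to 7.00 in the others) and HSD17B7 was 11.22 in replicate 6 (10.42 to 10.72 in the others). HSP90B1 was 11.05 in replicate 3 (10.04 to 10.38 in the others).

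The low values of liver were these. C3 was 12.91 in replicate 5 (13.58 to 13.67 in the others), C6 was 12.01 in replicate 5 (12.31 to 12.47 in the others) and CD14 was 12.63 in replicate 3 (13.22 to 13.52 in the others). CYP2E1 was 14.18 in replicate 6 (14.47 to 14.63 in the others), DECR1 was 10.03 in replicate 2 (10.91 to 11.11 in the others) and HBA2 was 9.67 in replicate 5 (10.66 to 11.03 in the others). LGALS1 was 7.95 in replicate 5 (8.51 to 8.80 in the others), ORM1 was 14.02 in replicate 5 (14.48 to 14.68 in the others) and PECR was 10.37 in replicate 3 (11.08 to 11.38 in the others). RPL24 was 7.19 in replicate 6 (8.36 to 8.49 in the others), SLC10A1 was 11.09 in replicate 5 (11.68 to 11.91 in the others) and SLC2A2 was 8.78 in replicate 5 (9.43 to 9.75 in the others). Liver replicate 5 was the low array for C3, C6, HBA2, LGALS1, ORM1, SLC10A1 and SLC2A2, 7 of these genes. Their cause was not tested.

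The tissue difference itself differed between groups for 4 genes. The gap was 1.65 log2 units for MYC between females and males, and between HFCS and chow it was 2.29 for RASD1, 1.51 for GDF15 and 1.29 for GADD45B. That of GDF15 rests on signals not above background and was not called with those signals raised to the lowest detected one.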

How the results depend on the processing

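The counts of genes depended most on the filter and the background correction. With probes detected on all 12 arrays, 1523 genes were higher in adipose and 1369 in liver, 85 and 105 of them at least 4-fold, and fewer genes were tested (4756). With normexp correction the 4-fold counts rose to 441 and 477. Leaving out 1 animal gave 2858 to 2976 genes higher in adipose and 2135 to 2220 in liver, and 162 to 175 and 289 to 297 at least 4-fold. Without the animal as a replicate block the counts were 2885 and 2153, and 5031 of the 5126 calls were kept. Of the named genes, C1QC, DGAT2, FOS and NR4A2 lost their call without the block, with adjusted p of 0.108, 0.0904, 0.0934 and 0.0715. Over the alternatives 51.6% to 57.9% of calls were higher in adipose, against 57.3%. Under an alternative 2 genes changed sign, AKR1D1 to -0.031 with probes detected on all 12 arrays and MYC, not called over 6 animals, to 0.47 in females only. The cause was not tested. The gap between the sexes was called for 0 genes without the detection filter, with normexp and with the authors' values, and for 0 to 6 with 1 animal less. The change with HFCS was called for 5 genes with normexp, for 2 to 5 with 1 animal less, for 2 with signals raised to the lowest detected one, which lost GDF15, and for 0 without the replicate block across diets. The difference of MUN and CON stayed at 0 under the alternatives run. Signal near background limits the genes detected in 1 tissue only. No promoter sequences were used, so the planned motif counts were not run.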

Other observations

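Some genes followed the animal rather than the tissue. Of 14 genes with an SD of at least 0.8 between animals in both tissues, 5 had an SD of the paired difference of at most 0.35. They were EIF1, a translation initiation factor, HLA-E, a class I molecule, RIOK3, a kinase, and the Y-linked RPS4Y1 and RPS4Y2, which were high in both tissues of the 3 animals labelled male. EIF1 ranged over 7.86 to 11.98 in adipose and 7.47 to 11.20 in liver, with an SD of the paired difference of 0.33. HLA-E ranged over 8.43 to 11.30 in adipose and 8.54 to 10.54 in liver, and RIOK3 over 7.21 to 9.62 in adipose and 7.43 to 9.67 in liver. Whether sequence differences under the human probes play a part was not tested.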
